A study of Homo sapiens with 6 samples.

Results

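The S phase and mitosis genes described here are 45 genes of the cell division cycle, given by symbol and matched to Ensembl identifiers, out of 65988 gene identifiers in the count tables. They form 2 sets: 19 genes of the S phase set (MCM2 to MCM7, PCNA, CDC6, CDT1, GINS2, RRM1, RRM2, TYMS, CCNE1, CCNE2, E2F1, SLBP, UHRF1 and POLA1) and 26 genes of the G2 and mitosis set. No measured value was used to choose them, although results of these libraries were known when the sets were drawn up. All 45 were detected in every library and all 45 passed the filter on low counts that left 16105 genes for testing.

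Human U87MG glioblastoma cells, an established line labelled as wild type, were given vehicle in 3 control libraries and 2 µM RSL3 in 3 treated libraries, and were otherwise grown alike in DMEM with serum. RSL3 is a small molecule that inhibits the lipid peroxide reductase GPX4 and drives cells into ferroptosis, an iron-dependent death by lipid peroxidation. Exposure lasted 24 h; the sample labels give no time. All libraries come from 1 cell line, and nothing in the labels says whether the replicates were separate cultures, so the p-values measure the spread between these libraries, which may be technical.

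Cells that commit to division pass from G1 into S phase when the E2F transcription factors, freed from the retinoblastoma proteins, switch on the genes for DNA replication. Genes for G2 and mitosis are held down in resting cells by the DREAM complex, and are switched on later by the MuvB core with B-MYB and then FOXM1; CHR and CCAAT elements are common in their promoters. Glioblastoma cells in culture usually cycle, and the mRNA of both sets is widely read as a measure of how many cells are dividing. Bulk RNA cannot tell fewer cells in S phase or mitosis apart from less mRNA per such cell.

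Total counts ran from 27813462 to 43306335 per library, and the TMM scaling factors lay between 0.995 and 1.01. Among markers of the line, VIM stood at 387 RPKM (counts per exon length and library size) in control cells and CD44 at 72.5 RPKM, whereas NES was low at 0.806 RPKM; VIM and CD44 fell with RSL3 (log2 fold changes -0.29 and -0.39). Of 12 markers of other cell types 7 had too few counts to be tested (MOG was at 0 in all 6 libraries and PTPRC at no more than 1 normalized count) and 5 were tested. Of these, the myelin gene MBP was called higher (log2 fold change 0.71, edgeR adjusted p = 0.00185) and the neuronal gene SNAP25 lower (-1.04, edgeR adjusted p = 4.83e-05), both at under 200 normalized counts in every library. OLIG2, GFAP and EPCAM were not called. Their part in the results below was not tested. Normalized counts below are raw counts scaled to the mean library size with TMM factors, and a gene is called changed when edgeR's quasi-likelihood test gave an adjusted p under 0.05 over all genes tested.

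The levels of the members differed between the sets. In control cells the median of the S phase set was 2.54 RPKM and that of the G2 and mitosis set 0.752 RPKM, against 3.52 RPKM over 15682 tested genes with an annotated length. Within the S phase set the histone mRNA-binding protein gene SLBP (32.7 RPKM) and the DNA clamp gene PCNA (22.2 RPKM) had the highest levels. The highest in the G2 and mitosis set were ECT2 (4.93 RPKM), a cytokinesis exchange factor, and the mitotic cyclin gene CCNB1 (4.43 RPKM). The proliferation marker MKI67 was at 0.591 RPKM and CDK1, the kinase that drives mitosis, at 0.520 RPKM. For comparison on the same scale, CDKN1A, which encodes the CDK inhibitor p21, was at 178 RPKM. The exon length is the union of exons in GENCODE v44.

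After RSL3 few members changed, and those that did were all lower. Of the 45, 7 were called lower and 0 higher: RRM1, PCNA, MCM4 and MCM6 of the S phase set, and CDK1, TOP2A and MAD2L1 of the G2 and mitosis set. These are 15.6% of the members called, against 25.6% of all genes tested, of which 12.7% were called lower and 12.9% higher. The share of members called lower is therefore near the background, and the share called higher is below it. The fitted log2 fold change (RSL3 over control) was below 0 in 36 of the 45, 13 of 19 in the S phase set and 23 of 26 in the G2 and mitosis set, compared with 51.0% of all genes tested. In 15 members (33.3%) all RSL3-treated libraries lay below all control libraries, and in 1 (MCM2) above, whereas across all genes the groups were apart in 38.6%, 19.3% in each direction.

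**Figure D1:**
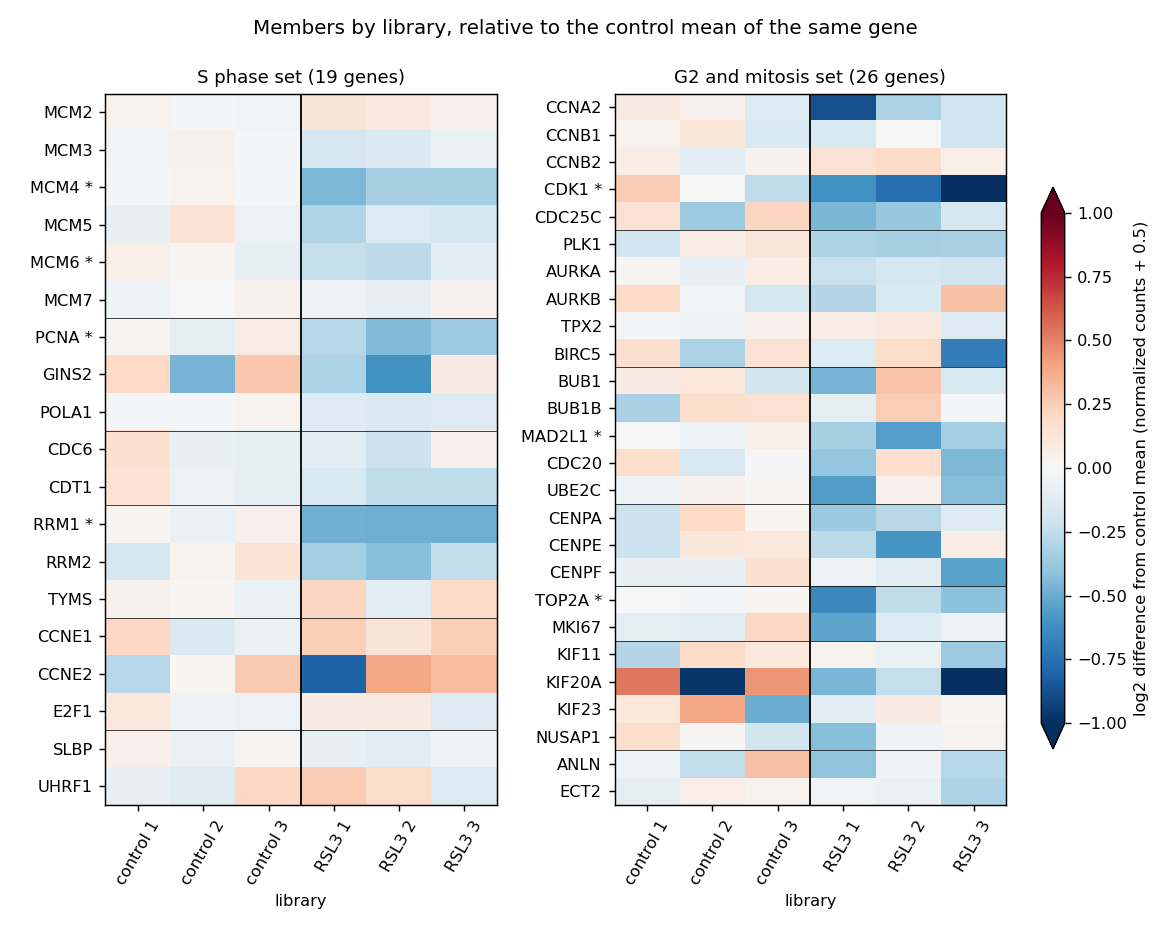
Each row is a member and each column a library; colour gives the log2 difference of the normalized count (plus 0.5) from the mean of the 3 control libraries, with values past 1 in either direction drawn in the end colour. Asterisks mark the 7 members called changed, thin lines separate roles, and the RSL3 columns are mostly pale blue, with fewer blue cells in the G2 and mitosis set in RSL3 replicate 2.

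The replicative helicase that unwinds DNA at the fork is a ring of 6 different MCM proteins, and 2 of its 6 genes were called lower. MCM4 (ENSG00000104738, chromosome 8 of GRCh38, 47960185 to 47978160) had 816, 844 and 813 normalized counts in the control libraries and 605, 653 and 654 in the RSL3-treated libraries. The RSL3-treated libraries were all below the lowest control library, and MCM4 fell by 0.37 on the log2 scale (SE 0.06, edgeR adjusted p = 0.000174). MCM6 (ENSG00000076003, chromosome 2, 135839626 to 135876443) went from 753, 737 and 681 to 614, 604 and 670 normalized counts. Its highest RSL3-treated library lay just below its lowest control library, at a log2 fold change of -0.20 (edgeR adjusted p = 0.0395). The call was lost in 10 of 17 alternative analyses. The adjusted p of MCM6 was 0.155, 0.0970, 0.121 and 0.158 without control replicate 1, control replicate 2, RSL3 replicate 1 or RSL3 replicate 2, and 0.0772 in DESeq2.

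The other helicase genes were not called. MCM3 (log2 fold change -0.12) and MCM5 (-0.19) were below the controls in every RSL3-treated library, with edgeR adjusted p of 0.107 and 0.0977. MCM7 overlapped between groups (log2 fold change -0.03, 95% interval -0.13 to 0.08). MCM2 had 1248, 1209 and 1197 normalized counts in control cells and 1329, 1301 and 1260 in RSL3-treated cells, so it lay on the opposite side from MCM4 (log2 fold change 0.09, 95% interval -0.01 to 0.19, edgeR adjusted p = 0.200). The ratio of MCM4 to MCM2 reads within a library, which needs no scaling, was 0.654, 0.698 and 0.680 in control cells and 0.455, 0.502 and 0.519 in RSL3-treated cells. These ratios do not overlap; the pair was chosen after its values were seen, so no test is given. Of the exon bases, 23.6% in MCM2 and 8.49% in MCM7 also belong to other genes, where reads counted without strand cannot be told apart; MCM4 and MCM6 share none.

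Ribonucleotide reductase makes the deoxynucleotides for replication from a large subunit, RRM1, and a small subunit, RRM2. RRM1 (ENSG00000167325, chromosome 11, 4094707 to 4138932) had the largest fall of the S phase set and the smallest p of all 45 members. Its normalized counts were 1136, 1070 and 1161 in control cells and 803, 801 and 801 in RSL3-treated cells. The groups were far apart for RRM1, with a fall of 0.49 on the log2 scale (SE 0.06, edgeR adjusted p = 9.67e-07), and the call held in all 17 alternative analyses. RRM2 was lower in every RSL3-treated library too, at 144, 136 and 154 against 163, 187 and 201 normalized counts, but did not pass the test (log2 fold change -0.34, edgeR adjusted p = 0.0681; 0.0429 without control replicate 1). TYMS, which encodes thymidylate synthase, overlapped between groups (log2 fold change 0.11, 95% interval -0.14 to 0.35), and other genes cover 47.9% of its exon bases. The p53-inducible small subunit RRM2B, counted among the p53 targets below, was called higher (log2 fold change 0.14, edgeR adjusted p = 0.00736); this gene was singled out after its values were seen.

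PCNA (ENSG00000132646, chromosome 20, 5114953 to 5126626), the sliding clamp that holds DNA polymerase on its template, had 1076, 995 and 1120 normalized counts in control cells. In RSL3-treated cells it had 871, 781 and 824. All RSL3-treated libraries were thus below the lowest control library. PCNA fell by 0.37 on the log2 scale (SE 0.06, edgeR adjusted p = 9.95e-05), and the call held in all 17 alternatives. POLA1, the catalytic subunit of the primase-bound polymerase, was at 467, 462 and 467 against 507, 502 and 521 normalized counts, without overlap but not called (log2 fold change -0.13, edgeR adjusted p = 0.221). GINS2, a subunit of the complex that activates the helicase, was too rare to place (37.2 ± 9.03 against 45.5 ± 11.8 normalized counts, SD, n = 3; 95% interval of the log2 fold change -0.89 to 0.27).

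The promoters of PCNA and MCM6 are shown because they are the called S phase members with the smallest p that carry an E2F site before the start of transcription. The windows are the 250 bases upstream of a RefSeq start site, on GRCh38.p14, written on the strand of the gene. PCNA lies on the minus strand at chr20:5126623-5126872, one of 2 windows in the table, and MCM6 on the minus strand at chr2:135876444-135876693. Capitals mark the E2F sites searched for, TTTCCCGC, TTTGGCGC, TTTCGCGC and TTTGCCGC on either strand.
PCNA: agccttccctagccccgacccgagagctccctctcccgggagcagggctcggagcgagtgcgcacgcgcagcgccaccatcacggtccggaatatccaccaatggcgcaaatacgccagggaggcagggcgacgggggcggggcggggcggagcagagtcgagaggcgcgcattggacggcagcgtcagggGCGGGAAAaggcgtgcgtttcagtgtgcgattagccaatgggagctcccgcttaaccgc
MCM6: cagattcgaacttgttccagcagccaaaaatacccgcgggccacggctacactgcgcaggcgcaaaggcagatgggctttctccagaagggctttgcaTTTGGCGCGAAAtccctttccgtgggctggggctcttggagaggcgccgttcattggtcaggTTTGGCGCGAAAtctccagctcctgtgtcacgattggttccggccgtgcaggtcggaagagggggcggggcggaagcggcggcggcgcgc
The PCNA site ends 52 bases before the start. MCM6 has 2 stretches, each made of a site on one strand that overlaps a site on the other, beginning 152 and 90 bases before the start.

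E2F sites did not divide the called from the uncalled members. They were present in 10 of the 16 S phase members with a window (62.5%) and in 3 of the 22 G2 and mitosis members with one (13.6%), against 5.41% of 11114 tested genes and 3.40% of all 27305 genes with a window. Of the 10 S phase carriers, PCNA and MCM6 were called lower. Of the 3 G2 and mitosis carriers, CDK1 was called lower, and CENPA and NUSAP1 overlapped between groups. RRM1 was called lower without such a site in its window. E2F1, GINS2, MCM7, TYMS and UHRF1 carried one and overlapped between groups. MCM3, CDT1 and POLA1 carried one and lay below the controls in every RSL3-treated library, without a call. MCM4, MCM5 and CCNE2 had no entry in the promoter table used. A match is a description of letters and not of binding.

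Licensing factors and the regulators that act ahead of S phase were not called. CDC6 and CDT1, which load the helicase onto origins, had log2 fold changes of -0.10 (95% interval -0.30 to 0.10) and -0.23 (-0.48 to 0.01). CDT1 lay lower in every RSL3-treated library, whereas CDC6 overlapped. The cyclin E genes, whose products activate CDK2 at the G1/S transition, and E2F1 all had fitted values above 0. CCNE1 was at 251, 232 and 250 normalized counts in RSL3-treated cells against 245, 192 and 202 in control cells (log2 fold change 0.18, 95% interval -0.06 to 0.43). CCNE2 was at 28.7, 66.5 and 62.9 against 41.6, 51.7 and 61.0, so RSL3 replicate 1 was below every control library and the other two above (95% interval -0.53 to 0.63). Other genes share 37.1% of its exon bases. E2F1 had a log2 fold change of 0.01 (95% interval -0.21 to 0.23). SLBP (-0.08) and UHRF1 (0.10), the latter a reader of half-methylated DNA, also overlapped between groups.

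**Figure D2:**
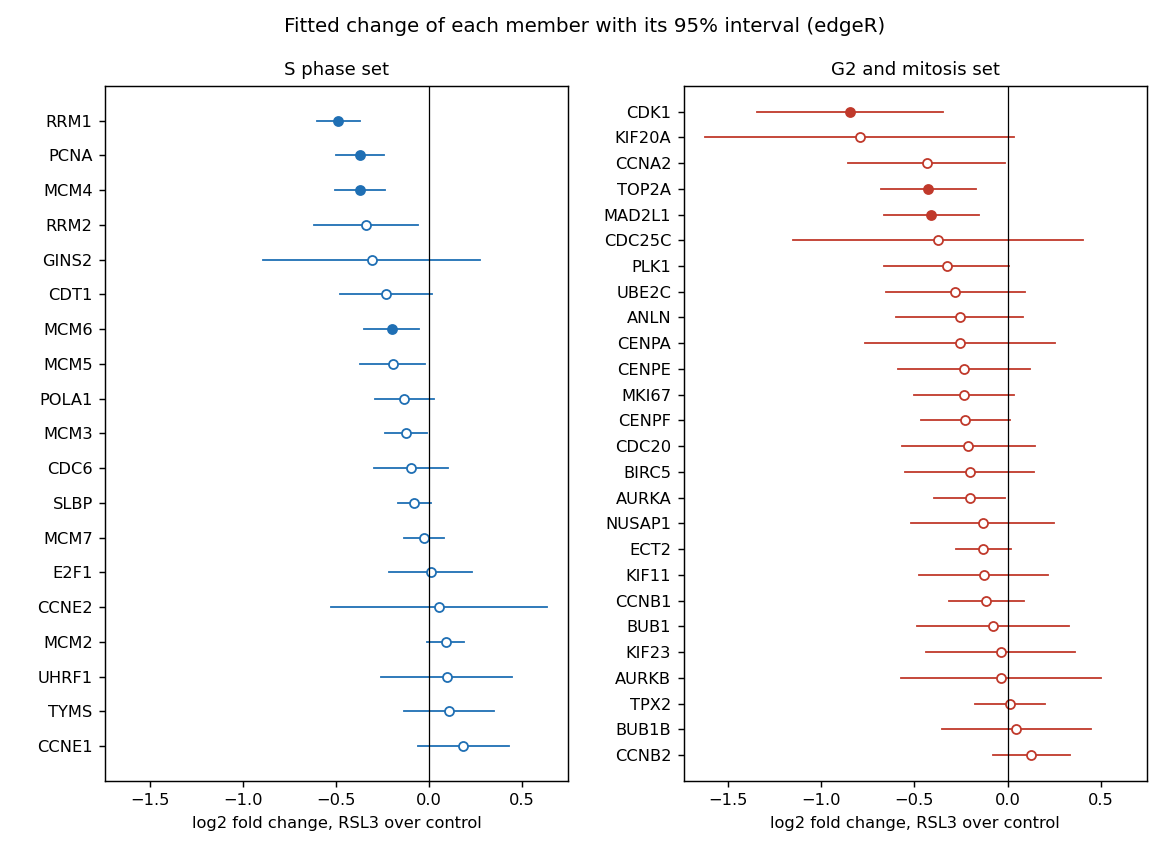
Points give the log2 fold change of each member, RSL3 over control, lines the 95% interval from edgeR, and filled points an adjusted p under 0.05. Most points lie left of 0, and the intervals are wider in the G2 and mitosis set, whose genes have fewer reads.

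CDK1 was called lower and its cyclin genes were not called. CDK1 (ENSG00000170312, chromosome 10, 60778331 to 60794852) had 81.7, 68.9 and 57.3 normalized counts in control cells and 44.8, 40.5 and 30.9 in RSL3-treated cells. Its fall of 0.85 on the log2 scale was the largest of all 45 members, with an SE of 0.24 (edgeR adjusted p = 0.0118). The groups did not overlap, and the adjusted p was 0.0858 without control replicate 1 and 0.0560 without RSL3 replicate 3. CCNA2, the cyclin of S phase and G2, was at 48.3, 71.7 and 77.9 against 95.1, 92.2 and 81.3 normalized counts, without overlap but not called (log2 fold change -0.43, edgeR adjusted p = 0.129). The mitotic cyclin genes CCNB1 (log2 fold change -0.11, 95% interval -0.32 to 0.09) and CCNB2 (0.13, -0.08 to 0.34) overlapped between groups and pointed in opposite directions. The ratio of CDK1 to CCNB2 reads within a library was 0.283, 0.272 and 0.203 in control cells and 0.147, 0.129 and 0.108 in RSL3-treated cells, a pair chosen after its values were seen. CDC25C, the phosphatase that activates CDK1, had under 25 normalized counts in every library and a 95% interval from -1.15 to 0.40.

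Of the chromosome structure genes, TOP2A was called and MKI67 was not. TOP2A (ENSG00000131747, chromosome 17, 40388525 to 40417896) encodes the topoisomerase that untangles sister chromatids. It had 233, 230 and 237 normalized counts in control cells and 149, 195 and 176 in RSL3-treated cells. The control libraries lay close together and the groups apart, and TOP2A fell by 0.43 on the log2 scale (SE 0.12, edgeR adjusted p = 0.0124). Without RSL3 replicate 1, the lowest library, the adjusted p was 0.0791. MKI67, whose protein coats mitotic chromosomes, was at 178, 235 and 247 against 240, 239 and 298 normalized counts. RSL3 replicate 1 was well below the controls, replicate 2 just below the lowest of them, and replicate 3 among them (log2 fold change -0.23, 95% interval -0.50 to 0.04, edgeR adjusted p = 0.210).

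Among the spindle checkpoint and anaphase genes only MAD2L1 passed the test. MAD2L1 (ENSG00000164109, chromosome 4, 120055623 to 120066858), an inhibitor of the anaphase-promoting complex, had 213, 205 and 222 normalized counts in control cells and 169, 145 and 169 in RSL3-treated cells. It fell by 0.41 on the log2 scale (SE 0.12, edgeR adjusted p = 0.0160), without overlap. The adjusted p was 0.0576 without control replicate 3 and 0.0887 without RSL3 replicate 2. The call was also lost in DESeq2 with 1 or 2 surrogate variables. The checkpoint kinase gene BUB1 (log2 fold change -0.08) and its relative BUB1B (0.05) overlapped widely. CDC20, the activator of the anaphase-promoting complex, and UBE2C, its ubiquitin-conjugating enzyme, also varied between the RSL3-treated libraries. UBE2C was at 74.7, 114 and 81.9 in RSL3-treated cells against 106, 113 and 111 in control cells, and CDC20 at 107, 158 and 103 against 159, 125 and 139. In both genes replicates 1 and 3 were below all controls, while RSL3 replicate 2 was among the controls for CDC20 and slightly above them for UBE2C.

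The promoters of CDK1 and TOP2A are shown because, of the G2 and mitosis members with both a CHR element and a CCAAT box in the window, these had the smallest p. CDK1 lies on the plus strand at chr10:60778081-60778330 and TOP2A on the minus strand at chr17:40417897-40418146, on GRCh38.p14 from RefSeq; for CDK1 it is one of 2 windows in the table. Capitals mark CHR elements (TTTGAA or TTCGAA) and CCAAT boxes (CCAAT), on either strand.
CDK1: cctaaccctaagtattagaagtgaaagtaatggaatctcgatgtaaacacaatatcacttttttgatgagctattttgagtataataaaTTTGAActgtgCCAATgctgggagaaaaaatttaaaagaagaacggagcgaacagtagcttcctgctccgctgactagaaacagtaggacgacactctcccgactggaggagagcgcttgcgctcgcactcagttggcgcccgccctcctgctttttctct
TOP2A: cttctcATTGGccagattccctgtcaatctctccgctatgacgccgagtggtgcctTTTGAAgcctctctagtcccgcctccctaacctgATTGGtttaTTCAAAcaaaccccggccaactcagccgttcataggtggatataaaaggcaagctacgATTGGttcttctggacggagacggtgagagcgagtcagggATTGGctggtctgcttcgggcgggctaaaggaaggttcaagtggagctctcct
In CDK1 the CHR element begins 161 bases and the CCAAT box 150 bases before the start. This window holds none of the E2F sites searched for. The E2F site counted for CDK1 lies in its other window, which is not shown. TOP2A has 2 CHR elements and 4 CCAAT boxes. None of these marked stretches overlap.

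CHR elements were found in 13 of 22 G2 and mitosis members with a window (59.1%) and in 2 of 16 S phase members (12.5%), against 13.8% of 11114 tested genes and 17.2% of all 27305 genes. A CHR element together with a CCAAT box stood in 11 of the 22 (50.0%), in 12.5% of the S phase members, in 5.41% of tested genes and in 6.24% of all genes. Again the letters did not fully divide the calls. Of the members with both elements, CDK1, TOP2A and the 2 such S phase members, RRM1 and MCM6, were called lower. The others with both were not called. Of these, CCNB2, CENPA, MKI67, KIF11, KIF23, CDC20, CDC25C and ECT2 overlapped between groups. PLK1 lay below the controls in every RSL3-treated library. MAD2L1 was called lower without a CHR element in its window. A link between these elements and the calls was not tested.

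No mitotic kinase, centromere, spindle motor or cytokinesis gene of the set was called. Polo-like kinase gene PLK1 was at 95.4, 94.5 and 94.8 normalized counts in RSL3-treated cells against 104, 125 and 129 in control cells. It did not overlap, but missed the threshold (log2 fold change -0.33, edgeR adjusted p = 0.153), and other genes cover 12.8% of its exon bases. AURKA was likewise apart, at 303, 314 and 311 against 357, 335 and 374 (log2 fold change -0.20, edgeR adjusted p = 0.115). AURKB, its partner in the chromosomal passenger complex BIRC5, and the AURKA activator TPX2 overlapped, with log2 fold changes of -0.03, -0.20 and 0.01. BIRC5 ranged from 151 to 277 normalized counts within the RSL3-treated libraries.

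The centromere genes CENPA, CENPE and CENPF had similar fitted values, -0.26, -0.23 and -0.23 on the log2 scale, and all overlapped. CENPF was at 354, 340 and 254 normalized counts in RSL3-treated cells against 349, 346 and 409 in control cells, so RSL3 replicate 3 was far below the controls, replicate 2 slightly below and replicate 1 among them. The spindle motor gene KIF20A had the widest interval of the 45 (log2 fold change -0.79, 95% interval -1.63 to 0.04), with control replicate 2 at 13.5 normalized counts beside 39.3 and 37.0 in the other controls; without that library its edgeR adjusted p was 0.0359. KIF11, KIF23 and NUSAP1 had log2 fold changes of -0.13, -0.04 and -0.13, and the cytokinesis genes ANLN and ECT2 of -0.26 and -0.13. Reads of NUSAP1 are the hardest to assign, since other genes cover 86.8% of its exon bases.

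**Figure D3:**
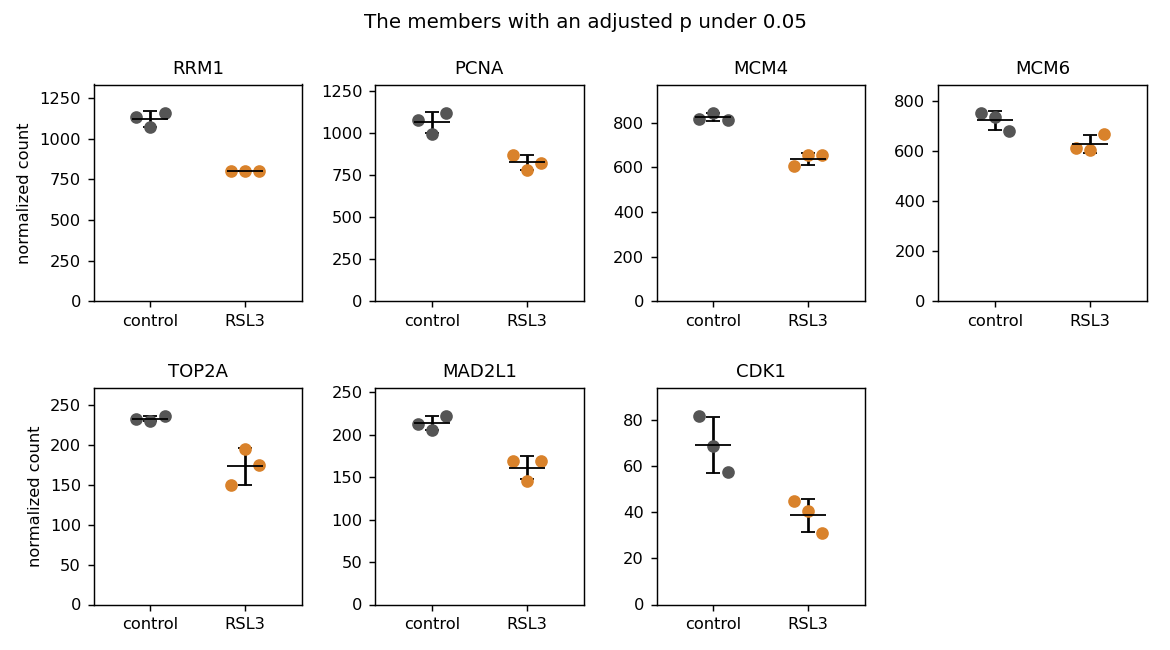
Points are the normalized counts of the 7 called members in each library, horizontal bars the group mean and whiskers the SD (n = 3), on axes that start at 0. The RSL3-treated libraries lie below the control libraries in each panel, with the narrowest gap in MCM6.

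Taken as sets, both lay lower in the RSL3-treated libraries, and the contrast between them was not separated from the spread of the libraries. The median log2 fold change was -0.12 over the S phase set and -0.22 over the G2 and mitosis set, beside -0.00439 over all genes tested. Averaged over its members, the S phase set was at -0.158, -0.151 and -0.0797 log2 units from the control mean in RSL3 replicates 1, 2 and 3, and the G2 and mitosis set at -0.306, -0.122 and -0.281. The control libraries ranged from -0.0454 to 0.0265 and from -0.0407 to 0.0252, so neither set overlapped between groups. The mean over all genes tested did not overlap either. It lay between -0.0246 and -0.00715 in the RSL3-treated libraries and between -0.00460 and 0.00636 in the control libraries. The difference between the sets, G2 and mitosis minus S phase, was -0.148, 0.0291 and -0.201 in the RSL3-treated libraries and between -0.00336 and 0.00470 in the control libraries. RSL3 replicate 2 thus lay above the controls in this difference and the other two below. The difference of the medians, -0.0941, became -0.155 without RSL3 replicate 2, -0.0486 without control replicate 3 and -0.0615 without RSL3 replicate 3.

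**Figure D4:**
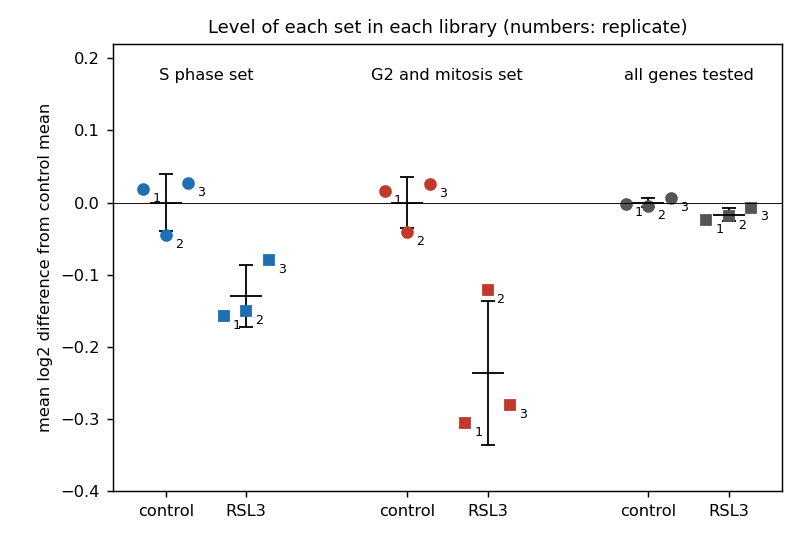
Each point is a library, numbered by replicate, and its height the mean over genes of the log2 difference from the control mean; bars and whiskers give the mean and SD of 3 libraries. The S phase points of RSL3 lie between -0.158 and -0.0797, those of G2 and mitosis between -0.306 and -0.122, and all genes tested between -0.0246 and -0.00715.

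The libraries differed in which members were low. Of the 26 G2 and mitosis members, 17, 11 and 16 were below every control library in RSL3 replicates 1, 2 and 3, and 2, 6 and 1 were above every control library. As shares, 65.4%, 42.3% and 61.5% were below, against 34.7%, 34.6% and 32.7% of all genes tested. Those above were 7.69%, 23.1% and 3.85%, against 33.7%, 33.2% and 32.3% of all genes tested. In the S phase set the numbers below were 13, 14 and 11 of 19, and those above 4, 2 and 5. The shares below were 68.4%, 73.7% and 57.9%, and those above 21.1%, 10.5% and 26.3%. RSL3 replicate 2 was therefore the library with the fewest low mitosis genes and the most low S phase genes. Its total count was 32953193, beside 29828249 and 34196864 in RSL3 replicates 1 and 3.

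Read depth differed between the sets, and its part in the number of calls was not tested. A mean under 100 normalized counts was found in 11 members (2 of the S phase and 9 of the G2 and mitosis set), and 1 of these was called; over all genes in that range 7.15% were called. Between 100 and 400 counts 2 of 22 members were called, 16 of the 22 from the G2 and mitosis set, against 18.5% of all genes. Between 400 and 1000 counts 4 of 9 were called, 8 of the 9 from the S phase set, against 26.5%. The 3 members at 1000 counts and over, MCM2, MCM7 and SLBP, were not called, against 41.6% of all genes called. The median standard error of the log2 fold change was 0.246 for the members under 100 counts and 0.126 for those between 100 and 400 counts, beside a median log2 fold change of -0.22 in the G2 and mitosis set.

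Further genes of the same pathways were read from lists that hold none of the members. Of 50 other S phase genes, 48 were tested, 5 were called lower (10.4%) and 2 higher (4.17%), with a median log2 fold change of -0.07. Both shares are below those of all genes tested, 12.7% and 12.9%. DUT, which removes dUTP (log2 fold change -0.23, edgeR adjusted p = 0.000195), the polymerase delta subunit gene POLD2 (-0.10) and the flap endonuclease gene FEN1 (-0.23) fell. The clamp loader subunit gene RFC1 (0.12) rose. Of 64 other G2 and mitosis genes, 61 were tested, 10 were called lower (16.4%) and 3 higher (4.92%), with a median of -0.14.

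CDC25B, a phosphatase that activates CDK1 at mitotic entry, fell from 1335, 1352 and 1389 normalized counts to 978, 1037 and 1043 in RSL3-treated libraries (log2 fold change -0.41, edgeR adjusted p = 2.41e-06). The kinase gene MELK (-0.44) and the condensin gene SMC4 (-0.29) fell as well. MYBL2, which encodes the B-MYB activator of mitosis genes, fell from 50.3, 52.9 and 37.9 to 31.0, 24.9 and 19.97 normalized counts (-0.89 on the log2 scale, edgeR adjusted p = 0.0273). FOXM1, the other activator, was at 739, 737 and 644 against 699, 600 and 691 normalized counts, with overlap (log2 fold change 0.08, edgeR adjusted p = 0.481). CDCA2 (0.53), the separase gene ESPL1 (0.47) and UBE2S (0.16), a ubiquitin-conjugating enzyme of the anaphase-promoting complex, rose.

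Regulators of cell cycle entry and exit moved in both directions. Of 32 listed, 28 were tested, 8 were called higher (28.6%) and 4 lower (14.3%), with a median log2 fold change of -0.00549. Over all genes tested, 12.9% were called higher and 12.7% lower. Many of the tested regulators, and most of those called, stood at 1000 normalized counts or over, where 41.6% of all genes were called. Whether level accounts for the calls among the regulators was not tested. TFDP1, the dimer partner of the E2F proteins, rose from 3480, 3494 and 3539 to 4106, 4208 and 4091 normalized counts (a log2 ratio of 0.24, edgeR adjusted p = 1.20e-05). E2F7 (0.18) and E2F4 (0.15) rose, as did E2F3 (0.26), E2F5 (0.32) and E2F6 (0.15), which were singled out after their values were seen. The family thus included the activator E2F3 as well as repressors, and E2F8 was at no more than 7 normalized counts and was not tested. CCND1, encoding cyclin D1, was slightly higher, at 6329, 6282 and 6359 against 5853, 5870 and 5909 normalized counts (a log2 ratio of 0.11, edgeR adjusted p = 0.0122). The MuvB subunit genes did not move alike. LIN54 fell (-0.30), whereas LIN52 was called higher (log2 fold change 0.20, edgeR adjusted p = 0.0364). LIN37 (0.34) and LIN9 (-0.21) were not called. LIN9, LIN37 and LIN52 were singled out after their values were seen.

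CDKN1A, the p21 gene, fell slightly. It was at 17248, 17005 and 16768 normalized counts in RSL3-treated cells against 18225, 18241 and 17911 in control cells, without overlap (log2 fold change -0.09, edgeR adjusted p = 0.0164). CDKN1B, the p27 gene, overlapped between groups (-0.11, edgeR adjusted p = 0.0801). Of 23 p53 targets, which include CDKN1A, 7 were called higher (30.4%) and 9 lower (39.1%), against 12.9% and 12.7% of all genes tested. Their median log2 fold change was -0.09. Most of these targets stood at 1000 normalized counts or over, where 41.6% of all genes were called. The part of level in their calls was not tested. GDF15 rose most, from 35843, 35513 and 34192 to 56249, 54274 and 50302 normalized counts (log2 fold change 0.61), followed by PLK2 (0.41), with TNFRSF10B at 0.15. CCNG1 (-0.28), FAS (-0.28) and BBC3 (-0.31) fell. The lists overlap, since CDKN1A and CCNG1, among others, stand among both the regulators and the p53 targets.

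**Figure D5:**
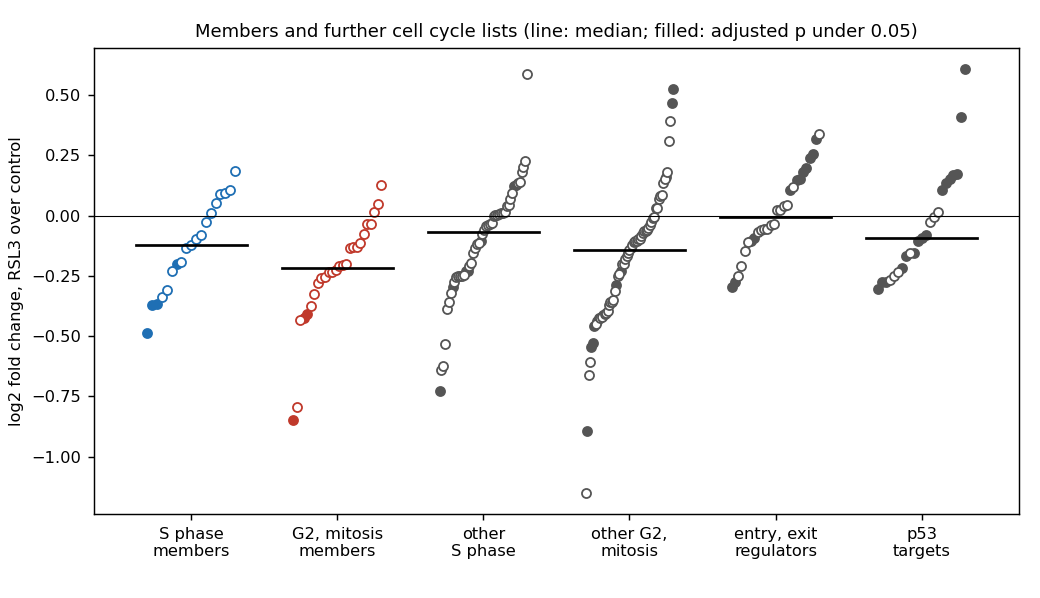
Points are the log2 fold changes (RSL3 over control) of the tested genes of each list in rising order, filled where edgeR's adjusted p was under 0.05, and lines are medians. The lines of the S phase and mitosis lists lie at or below -0.07. The line of the p53 targets lies at -0.09, whereas that of the regulators lies at about 0.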

How the data were processed

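The authors prepared poly(A) RNA-seq libraries, trimmed the read pairs with Trimmomatic and Fastp, mapped them with HISAT2 (GRCh38.p4) and obtained exon counts by HTSeq-count in its unstranded mode. They deposited raw counts per Ensembl gene, not normalized. The annotation release is not given in the sources used here. Exon overlaps, lengths and GC content come from GENCODE v44 (GRCh38), so overlaps describe the counts only as far as the annotations match. All 45 members had a symbol match.

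The tests used edgeR 4.0.16 in R 4.3.3 (filterByExpr with a minimum count of 10, TMM, quasi-likelihood F test, Benjamini-Hochberg over 16105 genes, threshold 0.05, no covariates). Replicates of a group differed by more than sampling noise. The study's own test, DESeq2 with surrogate variables, was an alternative (DESeq2 1.42.0, sva 3.50.0). Other alternatives were the scaling, the filter, the replicate number as a block, GC offsets (loess, span 0.3), thinning, thresholds and leaving out each library. Set levels are means of log2(normalized count + 0.5). Scripts were tested on simulated data. Members, lists and motifs were chosen with earlier results of these data known. Named are all members and, from each further list, up to 3 called genes per direction with the smallest p, plus CDKN1A, CDKN1B, CCND1, FOXM1, MYBL2, E2F7 and E2F8. RRM2B, E2F3, E2F5, E2F6, LIN9, LIN37, LIN52, MBP and SNAP25 were named after their values were seen, and the other markers from the marker lists. A further gene that this rule would name is not reported here. Promoter windows of 250 bases come from RefSeq (GRCh38.p14), with an entry for 38 of the 45 members.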

Additional observations from a re-analysis of the deposited data

How the results depend on the processing

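No alternative called any member higher, and RRM1, PCNA and MCM4 were called lower in all of them. Over all genes, 4123 calls became 2268 in DESeq2 with 2 surrogate variables, 2691 at an adjusted p under 0.01 and 1852 when a log2 change of 0.26 or more in size was required as well. The 3 calls in the G2 and mitosis set became 0 at an adjusted p under 0.01. In DESeq2 with 1 surrogate variable they became 2, and MAD2L1 was lost. With 2 surrogate variables they became 0 (DESeq2 adjusted p 0.113 for CDK1, 0.116 for TOP2A and 0.177 for MAD2L1). The cause of the loss with surrogate variables was not tested. Leaving out each library in turn gave 3 to 4 S phase and 2 to 4 G2 and mitosis members called lower, and the difference of the set medians stayed between -0.155 and -0.0486. Whether the replicate numbers pair the libraries was not settled. Deviations of same-numbered libraries from their group means correlated at 0.0222, 0.0273 and 0.0745. Those of differently numbered libraries correlated between -0.0514 and 0.0242, the highest for RSL3 replicate 1 with control replicate 2. With the replicate number as a block, 4633 genes, 4 S phase and 3 G2 and mitosis members were called. GC offsets moved the set medians from -0.12 to -0.10 and from -0.22 to -0.20, and MCM6 was not called with them (adjusted p = 0.0708). The median standard error was 0.246 over the 11 members under 100 counts, 9 of which belong to the G2 and mitosis set.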
